A study of Mus musculus with 6 samples.

Results

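Neuronal adhesion molecules, guidance receptors, neurotransmitter receptors and synapse organizers were followed through ATF3 chromatin immunoprecipitation sequencing (ChIP-seq) in mouse bone marrow-derived macrophages. The set comprised 46 named genes that are used mostly by another cell type and are often long, and a peak was assigned to a member when its annotated gene, the one with the nearest transcription start site, was that member. Of the 4908 genes that carried a peak anywhere in the series, 28 were members, and of 16759 listed peaks 152 were assigned to them, 123 in the standard lists and 29 in the KOIN-corrected lists. The remaining 18 members had no peak. Cells were grown with M-CSF at 40 ng/ml from the marrow of animals aged 6 to 8 weeks, either ATF3-deficient mice (KO) or C57BL/6 wild-type mice (WT), and the allele and the background strain of the KO mice are not given in the sources used here. The groups were HDL + CpG, HDL alone and unstimulated cells, each as KO and WT. HDL was high-density lipoprotein at 2 mg/ml for 6 h. In HDL + CpG it was followed by the TLR9 ligand CpG at 100 nM for 4 h. A genotype and condition was represented by 1 library that the authors pooled from 3 biological replicates. No replicate spread can therefore be given, and each test below compares a pair of libraries and covers counting error only.

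These proteins hold nerve cells together and tune their contacts. Neuroligins, neurexins and leucine-rich repeat proteins join the pre- and postsynaptic membranes, contactins, IgLON proteins and other immunoglobulin superfamily members bind along axons and dendrites, and Robo, Dcc and Unc5 receptors steer growing axons by Slit and netrin cues. Many of their genes are spread over very long introns and are flanked by gene-poor DNA, which in the mouse is rich in retrotransposons, simple repeats and satellites. ATF3 is a stress-induced basic leucine zipper factor that binds AP-1 and CRE elements and limits inflammatory gene expression in macrophages. RNA was not measured here, so whether a member was transcribed in these cells is not known, and a peak assigned to a gene by distance is not evidence that the gene is controlled from it.

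Standard peaks come from calls made in WT with no control library. KOIN, the knockout-implemented normalization, then called peaks with the KO library as control, dropped peaks that were also called in KO, and required at least a 2-fold excess of WT tags, which is a KO/WT of at most 0.5. A standard peak overlapping a KOIN-corrected peak of its condition is called kept and any other removed. Tags are reads in the peak scaled to 10000000 reads per library. The KO and WT libraries held 47504605 and 49467421 reads for HDL + CpG, 66061648 and 37930363 for HDL, and 75534584 and 37137377 for unstimulated cells, so that KO depth was 0.96, 1.74 and 2.03 times that of WT. A standard member peak rested on at least 24, 16 and 21 WT reads in the 3 conditions, with medians of 71, 43 and 77. As standard peaks were picked on WT tags, and as the KOIN lists were made from the same KO and WT reads, a KO/WT below 1 at a peak and its kept status are not independent observations.

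The gene targeted in the KO mice was looked at first. The promoter peak of Atf3 had 7.79 KO and 15.4 WT tags in HDL + CpG, 12.1 KO and 21.9 WT tags in HDL, and 9.66 KO and 16.7 WT tags in unstimulated cells, with KO/WT of 0.507, 0.553 and 0.579, and was removed in all 3 conditions. The KO libraries held 37, 80 and 73 reads there. Reads at the promoter of the targeted gene come from immunoprecipitated chromatin, not from its transcript, and do not check the genotype labels.

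The first 3 sequences under member peaks are shown because they hold a match to an ATF3-type element. Capitals mark TGAGTCA or its reverse complement TGACTCA (AP-1), or TGATGCAA (a CHOP-type element bound by C/EBP-ATF pairs). All sequences are from the plus strand of the mouse reference NCBIM37 (mm9). Dscam (intron 1) and Lsamp (intergenic) are peaks of HDL cells, and Kcnh5 (intergenic) is a peak of HDL + CpG cells.
Dscam, chr16:97331910-97331997: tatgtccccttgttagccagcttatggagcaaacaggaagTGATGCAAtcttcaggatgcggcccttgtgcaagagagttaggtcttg
Lsamp, chr16:41217916-41218062: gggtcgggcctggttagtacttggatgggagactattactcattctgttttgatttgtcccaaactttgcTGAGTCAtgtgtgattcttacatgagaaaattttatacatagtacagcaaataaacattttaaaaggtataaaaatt
Kcnh5, chr12:75926202-75926288: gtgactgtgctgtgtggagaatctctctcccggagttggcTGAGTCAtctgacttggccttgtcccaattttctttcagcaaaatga

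Next to these stand sequences from peaks on tandem repeats, which recur among the member peaks described below. In 3 kept peaks of HDL cells capitals mark the longest uninterrupted GA run, of 46, 56 and 24 bases in Nlgn1 (intergenic), Negr1 (intron 1) and Chl1 (intron 1).
Nlgn1, chr3:25146405-25146500: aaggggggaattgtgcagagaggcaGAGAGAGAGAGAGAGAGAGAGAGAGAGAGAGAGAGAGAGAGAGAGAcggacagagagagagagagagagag
Negr1, chr3:156321722-156321827: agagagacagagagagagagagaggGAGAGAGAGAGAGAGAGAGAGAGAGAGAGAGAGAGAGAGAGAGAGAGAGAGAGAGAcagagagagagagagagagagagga
Chl1, chr6:103480094-103480167: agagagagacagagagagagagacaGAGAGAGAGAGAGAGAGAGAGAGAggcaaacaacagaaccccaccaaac

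The last 3 sequences are a CAGA run 388 kb from the Lrrc4c start (capitals, a peak with few KO tags in HDL that was nevertheless removed), a TTTC run in intron 3 of Dscam (capitals, the only member peak kept in unstimulated cells), and 240 bases of the most covered satellite peak assigned to Lrrc4c in unstimulated cells, where capitals mark the longest stretch, of 16 bases, that occurs more than once in the window.
Lrrc4c, chr2:96919744-96919849: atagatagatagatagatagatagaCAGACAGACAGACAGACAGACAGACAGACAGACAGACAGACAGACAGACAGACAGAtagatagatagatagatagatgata
Dscam, chr16:97125043-97125144: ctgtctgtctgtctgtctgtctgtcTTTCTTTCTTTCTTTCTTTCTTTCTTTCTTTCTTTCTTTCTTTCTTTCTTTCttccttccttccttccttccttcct
Lrrc4c satellite, chr2:98506792-98507031: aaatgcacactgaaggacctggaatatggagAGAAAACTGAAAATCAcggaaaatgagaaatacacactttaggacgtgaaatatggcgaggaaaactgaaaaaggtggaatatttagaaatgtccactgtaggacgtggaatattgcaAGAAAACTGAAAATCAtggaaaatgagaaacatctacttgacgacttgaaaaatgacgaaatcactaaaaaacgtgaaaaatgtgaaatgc

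The first comparison asked how many member peaks survived subtraction of the KO signal. In HDL + CpG, 2 of 38 member peaks were kept (5.26%, 95% Wilson interval 1.46 to 17.3%), against 29.7% of all standard peaks. In HDL, 25 of 55 were kept (45.5%, 33.0 to 58.5%), against 54.9% of all. In unstimulated cells 1 of 30 was kept (3.33%, 0.591 to 16.7%), against 20.7% of all. Thus all but 3 of the 28 kept member peaks belonged to HDL cells. Over all genes too HDL had the most kept standard peaks, 2919, beside 1127 in HDL + CpG and 574 in unstimulated cells. The member peaks fell on 67 separate sites, of which 28 were kept in at least 1 condition and 0 in more than 1. The share kept in more than 1 condition was not computed over all genes, so this is not read as a member trait. The Wilson intervals treat the peaks of a condition as independent, although Lrrc4c alone had 5, 8 and 7 of them.

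Median KO/WT of the member peaks was 0.987 in HDL + CpG (range 0.359 to 1.8), against 0.705 for all standard peaks. In HDL it was 0.535 (0.161 to 1.42), against 0.416, and in unstimulated cells 0.763 (0.340 to 1.37), against 0.602. A KO/WT of at most 0.5 was found at 3 of 38, 27 of 55 and 2 of 30 member peaks (all peaks 34.6%, 66.6% and 31.3%), and one above 1 at 18, 12 and 3 (24.7%, 6.07% and 11.0%). In each condition the members' median lay closer to equal KO and WT tags than the median of all peaks did. The two-sided exact binomial test on reads, adjusted over all standard peaks of a condition (Benjamini-Hochberg, adjusted p below 0.05), called more WT reads at 5 of 38 member peaks in HDL + CpG (all peaks 40.9%), 30 of 55 in HDL (79.5%) and 15 of 30 in unstimulated cells (56.2%). More KO reads were called at 4 of 38 (all peaks 2.85%), 4 of 55 (0.902%) and 1 of 30 (0.900%). These splits depend on scaling by library totals. When KO/WT was centred on the median of all standard peaks instead, more WT and more KO reads were called at 0 and 17 member peaks in HDL + CpG, at 5 and 19 in HDL, and at 2 and 10 in unstimulated cells. The shares of all peaks called after centring were not computed, so these counts are not read as a trait of the members.

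**Figure D1:**
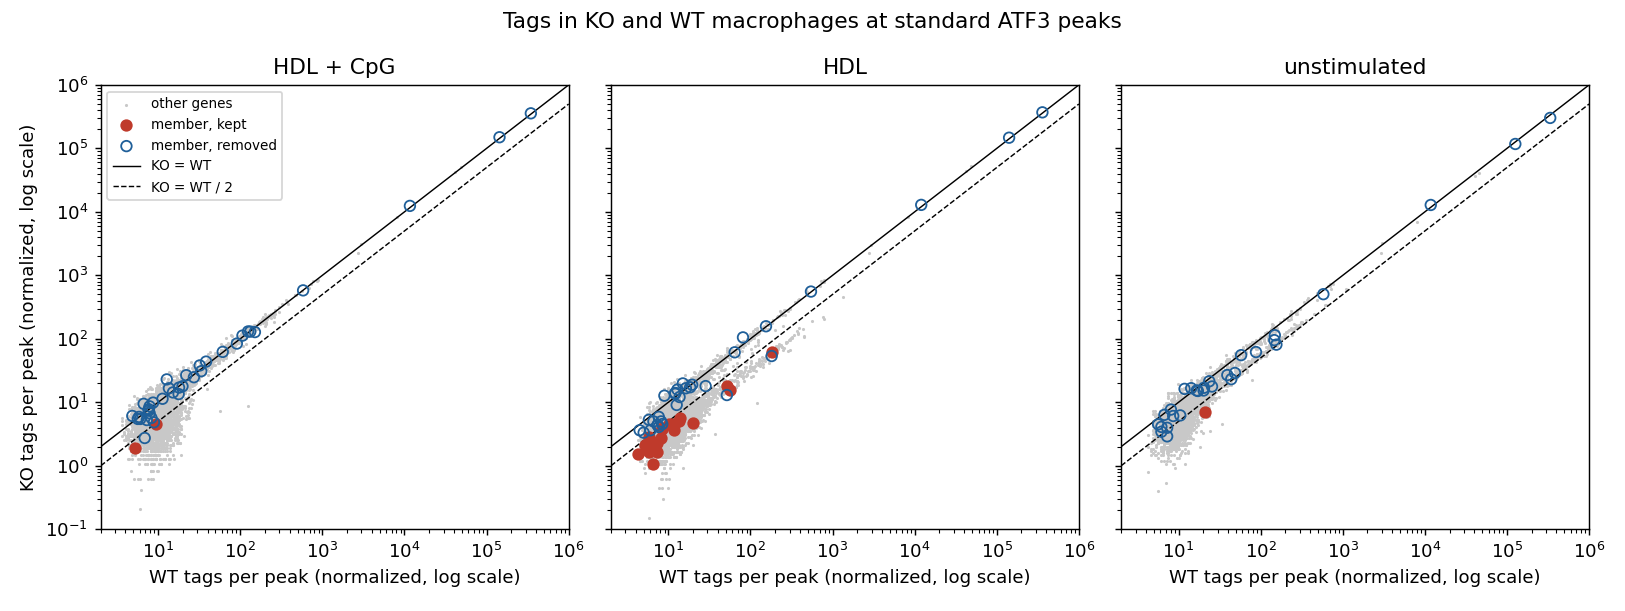
KO tags against WT tags per 10000000 reads (both log axes) at each standard peak of HDL + CpG, HDL and unstimulated cells, with all peaks behind and member peaks coloured as kept or removed. Member peaks of HDL + CpG scatter around the line of equal tags with 2 of 38 kept, those of unstimulated cells lie mostly just below it with 1 of 30 kept, and in HDL 25 of 55 are kept. One HDL + CpG peak of a non-member with 0 KO tags is not drawn.

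The 2-fold rule alone did not decide which member peaks were kept. In HDL + CpG the kept Kcnh5 peak lay at a KO/WT of 0.487 and the nearest removed peak above the limit, in Chl1, at 0.544. In HDL these were 0.497 (Robo1) and 0.535 (Opcml). Removal below the limit was seen over all peaks too, at 186 of 1313, 626 of 3545 and 296 of 870 peaks with a KO/WT of at most 0.5 in HDL + CpG, HDL and unstimulated cells. Among members it was seen at 1 of 3, 2 of 27 and 1 of 2, namely a Lsamp peak in HDL + CpG (0.399), the Gria1 intron peak (0.295) and the Lrrc4c CAGA peak (0.252) in HDL, and a Csmd3 peak in unstimulated cells (0.40).

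Among the synapse organizers, Nlgn1 encodes neuroligin, a postsynaptic partner of neurexins, Lrrc4c a ligand of netrin-G, and Mdga2 an immunoglobulin protein that binds neuroligins, whereas Nrxn3 (a presynaptic neurexin) and Lrrtm4 (a postsynaptic leucine-rich repeat protein) had no peak. The group had 8 standard peaks in HDL + CpG with 0 kept, 12 in HDL with 4 kept, and 9 in unstimulated cells with 0 kept. At the GA repeat 906 kb from the Nlgn1 start, shown above, KO and WT tags were 38.1 and 32.1 in HDL + CpG, 18.2 and 52.2 in HDL, and 26.9 and 39.3 in unstimulated cells. KO tags were lowest and WT tags highest in HDL, where KO/WT was 0.348 (exact 95% interval 0.275 to 0.439, adjusted p = 4.13e-19, exact binomial test) and the peak was kept. Another kept Nlgn1 peak, on an L1 element, had 1.82 KO and 5.54 WT tags, and one more, in intron 3, appeared in the KOIN list alone with 3.48 KO and 7.12 WT tags. That intron 3 peak was the only KOIN-corrected member peak without a standard peak of its condition. A further Nlgn1 peak of HDL + CpG cells, in an intron, spanned chr3:25416348-25421773 with 112 KO and 107 WT tags (1.06), which did not pass the test.

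Lrrc4c was the member with the most standard peaks, 20 over the 3 conditions, 5 in HDL + CpG, 8 in HDL and 7 in unstimulated cells, and the deposited annotation placed all of them as intergenic, although 6 had their centre inside the Lrrc4c body in the gene annotation of NCBIM37. Its most covered sites were a pair of adjacent major satellite blocks about 1200 kb away. The larger held 356977 KO and 346544 WT tags in HDL + CpG, 370004 KO and 359992 WT tags in HDL, and 302218 KO and 336565 WT tags in unstimulated cells, with KO/WT of 1.03, 1.03 and 0.898. KO and WT thus differed by little at any stimulus, and with reads in such numbers even ratios this near 1 passed the test. At the CAGA run shown above KO and WT tags were 30.9 and 33.6 in HDL + CpG, 13.0 and 51.7 in HDL, and 23.2 and 43.9 in unstimulated cells. In HDL this site had a KO/WT of only 0.252 (0.193 to 0.326, adjusted p = 1.21e-27, exact binomial test), yet it was removed. The kept Lrrc4c peaks, both in HDL and both on TC repeats, were small, with 3.78 KO and 8.44 WT tags and with 1.51 KO and 4.22 WT tags. On an IAPLTR3 element 862 kb away KO exceeded WT in HDL + CpG, with 23.0 KO and 12.7 WT tags (1.8, 1.31 to 2.50, adjusted p = 0.000757, exact binomial test). In HDL the same element had 19.8 KO and 15.0 WT tags, and in unstimulated cells 15.4 KO and 20.2 WT tags, neither past the test. Mdga2 had a satellite peak in an intron, removed in each condition, with 128 KO and 151 WT tags in HDL + CpG, 158 KO and 155 WT tags in HDL, and 114 KO and 149 WT tags in unstimulated cells. More WT reads were called there in HDL + CpG and in unstimulated cells, but not in HDL.

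Among the other immunoglobulin adhesion molecules, Dscam, which lets neurites of 1 cell avoid each other, had the lowest KO/WT of the kept member peaks off annotated repeats. In intron 1, 60.4 kb from the start and over the TGATGCAA element shown above, HDL cells had 4.69 KO and 19.8 WT tags, a KO/WT of 0.237 (0.151 to 0.365, adjusted p = 1.46e-11, exact binomial test). Another intron 1 peak, 67.6 kb from the start, had 5.60 KO and 13.7 WT tags (0.408). Neither had a standard peak in HDL + CpG or unstimulated cells. In intron 3 the order of conditions was another one. KO and WT tags over the TTTC run were 13.5 and 17.8 in HDL + CpG, 12.1 and 13.7 in HDL, and 7.15 and 21 in unstimulated cells. Only the unstimulated peak passed the test there (0.340, 0.236 to 0.488, adjusted p = 1.61e-08, exact binomial test), and it was the single member peak kept in these cells.

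Chl1, a close homologue of the L1 adhesion molecule, had 11 standard peaks, of which 1 was kept. In intron 1, at the short GA run shown above, KO and WT tags were 4.84 and 8.89 in HDL + CpG, 4.39 and 11.3 in HDL, and 4.50 and 5.65 in unstimulated cells. KO tags varied little between the 3 conditions, and the peak was kept in HDL alone (0.387, adjusted p = 0.000164, exact binomial test). At a TCTG repeat 196 kb away KO and WT tags were 84.2 and 91.0 in HDL + CpG, 105 and 81.2 in HDL, and 62.0 and 87.8 in unstimulated cells. Here HDL cells had more KO than WT reads (1.30, adjusted p = 0.000268) and unstimulated cells fewer (0.706, adjusted p = 1.23e-05, both exact binomial tests). A satellite-annotated peak inside Chl1 had 12431 KO and 11665 WT tags in HDL + CpG, 12891 KO and 12034 WT tags in HDL, and 12850 KO and 11810 WT tags in unstimulated cells, with KO/WT of 1.07, 1.07 and 1.09. It was the only member site at which more KO reads were called in all 3 conditions. Ncam1 and Ncam2 encode neural cell adhesion molecules. Ncam1 had 1 peak, 2.10 kb from its start, the member peak nearest to any start, with 5.47 KO and 6.06 WT tags in HDL + CpG (0.903), and it was removed. Ncam2 had 1 kept peak, in HDL with 1.97 KO and 6.06 WT tags, beside 6 peaks on IAPEy elements with KO/WT between 0.903 and 1.37, none of which passed the test.

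Contactins are glycolipid-anchored axonal adhesion proteins and the Cntnap genes encode the Caspr family that binds them. Cntn1, Cntn3 and Cntn6 had no peak. Cntn4 had a peak in intron 7 in each condition, with 5.26 KO and 7.28 WT tags in HDL + CpG, 4.39 KO and 7.38 WT tags in HDL, and 7.68 KO and 8.08 WT tags in unstimulated cells, none past the test. Cntn5 had 1 peak, on an L1 element, with 5.47 KO and 5.66 WT tags in HDL + CpG. At these low tags neither contactin had a peak past the test, and KO/WT of Cntn4 in HDL had an interval of 0.341 to 1.04. Cntnap2 had an intergenic peak over a sequence annotated as large-subunit ribosomal RNA, with 24.8 KO and 27.3 WT tags in HDL + CpG, 18.0 KO and 28.5 WT tags in HDL, and 17.7 KO and 25.6 WT tags in unstimulated cells. More WT reads were called in HDL and unstimulated cells, but KO/WT stayed at 0.633 and 0.694 and the peak was removed throughout. Of 11 Cntnap5a peaks, 10 lay on IAPEy or L1Md_F2 retrotransposons, had KO/WT between 0.828 and 1.42 and were removed. The one kept, in HDL on an RMER12 element, had 1.67 KO and 7.38 WT tags (0.226, 0.101 to 0.467, adjusted p = 3.84e-05, exact binomial test).

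The IgLON genes Lsamp, Negr1 and Opcml encode lipid-anchored adhesion proteins of limbic and other neurons, and all 3 genes had a kept peak in HDL. At the intergenic Lsamp site over TGAGTCA, 315 kb from the start, KO and WT tags were 43.8 and 38.4 in HDL + CpG, 15.6 and 56.7 in HDL, and 29.0 and 48.7 in unstimulated cells. Again KO tags were lowest and WT tags highest in HDL (0.275, 0.215 to 0.349, adjusted p = 1.07e-27, exact binomial test). A 5S ribosomal RNA repeat is annotated at the centre of the HDL peak. Negr1 had 3.63 KO and 11.9 WT tags in HDL over the GA run shown above (0.306, adjusted p = 6.76e-06, exact binomial test), and 3.44 KO and 6.19 WT tags in unstimulated cells, where it did not pass. Its KO tags were close in both conditions. Opcml had 1 kept peak, on a CA repeat in HDL, with 1.67 KO and 5.80 WT tags (0.288), and 3 further peaks were removed. Of these, 2 were at 1 site in intron 3, with 8.63 KO and 7.88 WT tags in HDL + CpG and 4.09 KO and 7.65 WT tags in HDL, and the other was on an L1Md_F2 element with 3.63 KO and 6.06 WT tags in HDL.

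Ctnna2, the neuronal alpha-catenin, and Csmd1, of the CUB and Sushi domain family, had no peak, and Ctnnd2, encoding delta-catenin, had 1 removed peak in HDL on an L1 element (5.30 KO and 5.80 WT tags). Lrp1b, a large lipoprotein receptor relative, had in intron 3 one of the most covered member sites. A CCCTAA simple repeat is annotated at the centre of its HDL and unstimulated peaks, but not of its HDL + CpG peak. KO and WT tags were 131 and 125 in HDL + CpG, 62.7 and 184 in HDL, and 95.5 and 147 in unstimulated cells. The site was kept in HDL (0.341, 0.301 to 0.386, adjusted p = 2.88e-68), was removed in unstimulated cells although WT reads were in excess (0.650, adjusted p = 1.95e-12, both exact binomial tests), and had equal tags in HDL + CpG. Csmd3, a relative of Csmd1, had a kept HDL peak on an L1 element 392 kb from the start with 2.27 KO and 6.85 WT tags (0.331). In intron 32 it had 5.89 KO and 5.86 WT tags in HDL + CpG and 2.91 KO and 7.27 WT tags in unstimulated cells, and both peaks were removed.

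Of 9 glutamate receptor genes, Grid1, Gria2, Gria4, Grik1, Grik2 and Grm8 had no peak. Gria1, which encodes an AMPA receptor subunit, had an intron peak centred on an annotated CAGA repeat in each condition. Its KO and WT tags were 130 and 133 in HDL + CpG, 53.6 and 181 in HDL, and 81.0 and 156 in unstimulated cells. The values follow the order seen at Lrp1b, with equal tags in HDL + CpG and the widest gap in HDL (0.295, 0.259 to 0.336, adjusted p = 7.34e-81, exact binomial test), but the site was removed in all 3 conditions. Grm7, a presynaptic metabotropic receptor, had 3 kept peaks in HDL. At an intronic GA repeat it had 1.06 KO and 6.59 WT tags, the lowest KO/WT of any member peak (0.161, 0.0587 to 0.382, adjusted p = 8.27e-06, exact binomial test). The other kept peaks had 4.39 KO and 11.6 WT tags (0.378) and 4.54 KO and 10.3 WT tags (0.442). Grm5, another metabotropic receptor, had a removed peak in intron 1, 6.48 kb from the start, with 5.0 KO and 8.17 WT tags in HDL.

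Gabra2, an alpha subunit gene of the inhibitory GABA-A receptor, had a kept HDL peak 45.3 kb from its start with 2.72 KO and 8.17 WT tags (0.333), Gabrg1 had a removed peak on an L1Md_F2 element with 6.74 KO and 7.88 WT tags in HDL + CpG, and Gabrb1 had none. The kept member peaks of HDL + CpG cells were both near voltage-gated potassium channel genes. Kcnh5, 352 kb from the peak, had 4.63 KO and 9.5 WT tags (0.487, 0.280 to 0.825, adjusted p = 0.0145), and Kcnd2, 190 kb from the peak, had 1.89 KO and 5.26 WT tags on an L1 element (0.359, 0.149 to 0.794, adjusted p = 0.017, both exact binomial tests). The wide intervals reflect the few reads behind them. In contrast, the most covered Kcnh5 site, a satellite 373 kb away, had 580 KO and 584 WT tags in HDL + CpG, 555 KO and 547 WT tags in HDL, and 505 KO and 581 WT tags in unstimulated cells. Kcnh7 (a channel of the same family) and Kcnip4 (a cytoplasmic channel subunit) had no peak.

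Of the peaks of axon guidance genes 7 of 8 were kept in HDL (all peaks 54.9%), with 0 of 2 kept in HDL + CpG and 0 of 2 in unstimulated cells. All 4 HDL peaks of Dcc, the netrin receptor, were kept. They lay in introns, 3 of them with a GA run, and had 2.12 KO and 5.27 WT, 3.94 KO and 8.44 WT, 4.54 KO and 11.1 WT, and 5.0 KO and 13.5 WT tags, with KO/WT between 0.372 and 0.467. The last of these sites had 9.47 KO and 6.67 WT tags in HDL + CpG. There the order of KO and WT was turned round, although the HDL + CpG peak itself did not pass the test. Robo1, a Slit receptor, had 2 kept HDL peaks on TC and GA repeats, with 2.27 KO and 7.12 WT tags (0.319) and with 2.88 KO and 5.80 WT tags (0.497). Robo2 had 2.27 KO and 7.38 WT tags in HDL (0.308, kept) and 3.97 KO and 7.27 WT tags in unstimulated cells (0.546, removed). Unc5d, a netrin receptor of the repulsive type, had 1 removed HDL peak with 5.0 KO and 6.59 WT tags. Unc5c, of the same type, and the secreted repellent Sema3a had no peak.

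**Figure D2:**
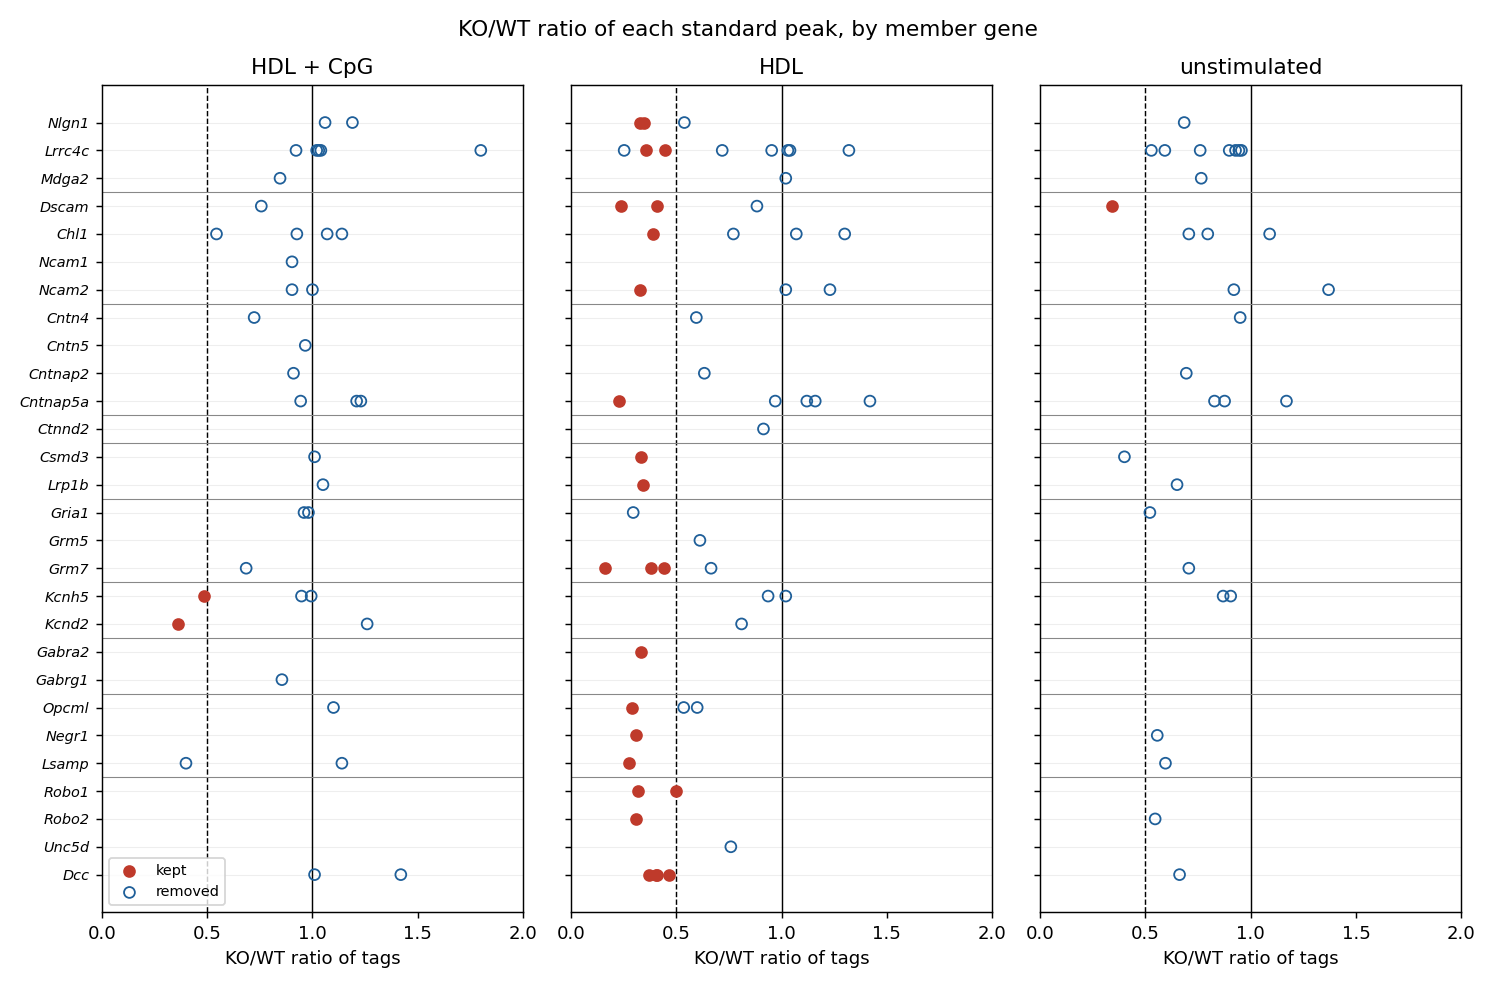
KO/WT tag ratio (linear axis) of every standard peak of the 28 members with a peak, by gene and condition. Filled points are kept and open points removed peaks. The points of HDL + CpG spread between 0.359 and 1.8 around a median of 0.987, whereas those of HDL reach down to 0.161 with 25 kept.

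The next comparison asked whether KO/WT at a site differed between stimuli. Over the 3 pairs of conditions 79 overlapping member peak pairs could be tested, among 6154 in all (two-sided exact conditional test on reads, adjusted over all 6154). The pairs share libraries and are not independent of each other. For HDL + CpG against HDL, KO/WT was higher at 8 and lower at 2 of 29 member pairs (all pairs 32.1% and 2.59%). For HDL + CpG against unstimulated cells it was higher at 11 and lower at 1 of 24 (25.3% and 2.52%). For HDL against unstimulated cells it was higher at 7 and lower at 5 of 26 (2.88% and 20.2%). With KO/WT centred on the median of all peaks, the counts of higher and lower became 6 and 11, 7 and 3, and 11 and 2, where over all pairs the shares were 13.8% and 20.6%, 17.0% and 6.17%, and 15.3% and 4.77%.

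Called differences occurred in 10 member genes. The largest for HDL + CpG against HDL was at Lsamp, where KO/WT was 1.14 and 0.275 and their ratio 4.14 (adjusted p = 9.06e-19, exact conditional test). It was followed by a Dcc site (3.82, adjusted p = 0.000259), the Lrrc4c CAGA run (3.66, adjusted p = 6.69e-13), Nlgn1 (3.41, adjusted p = 2.84e-13), Gria1 (3.32, adjusted p = 5.25e-43) and Lrp1b (3.07, adjusted p = 4.98e-39, all exact conditional tests). At Lsamp, Lrrc4c, Nlgn1, Gria1 and Lrp1b the 3 conditions stood in 1 order, with KO/WT lowest in HDL, intermediate in unstimulated cells and highest in HDL + CpG, and each of the 3 steps passed the exact test. This is also the order of the medians of all standard peaks, 0.416, 0.602 and 0.705, and so is not particular to the members. For HDL against unstimulated cells these 5 sites had ratios between 0.462 and 0.568, and for HDL + CpG against unstimulated cells between 1.61 and 1.92. Under median centring all 5 remained lower in HDL than in HDL + CpG, but Gria1, Lrrc4c and Nlgn1 no longer passed for HDL against unstimulated cells. Dscam intron 3 went the other way, with KO/WT of 0.757 in HDL + CpG and 0.883 in HDL against 0.340 in unstimulated cells (ratios 2.22, adjusted p = 0.00519, and 2.59, adjusted p = 0.000966, exact conditional tests). The TCTG repeat near Chl1 was highest in HDL, with KO/WT of 0.926 in HDL + CpG, 1.30 in HDL and 0.706 in unstimulated cells. At the satellites near Lrrc4c and Kcnh5 the called ratios were small, between 1.01 and 1.17, and all of those that involve HDL + CpG were turned round by median centring.

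**Figure D3:**
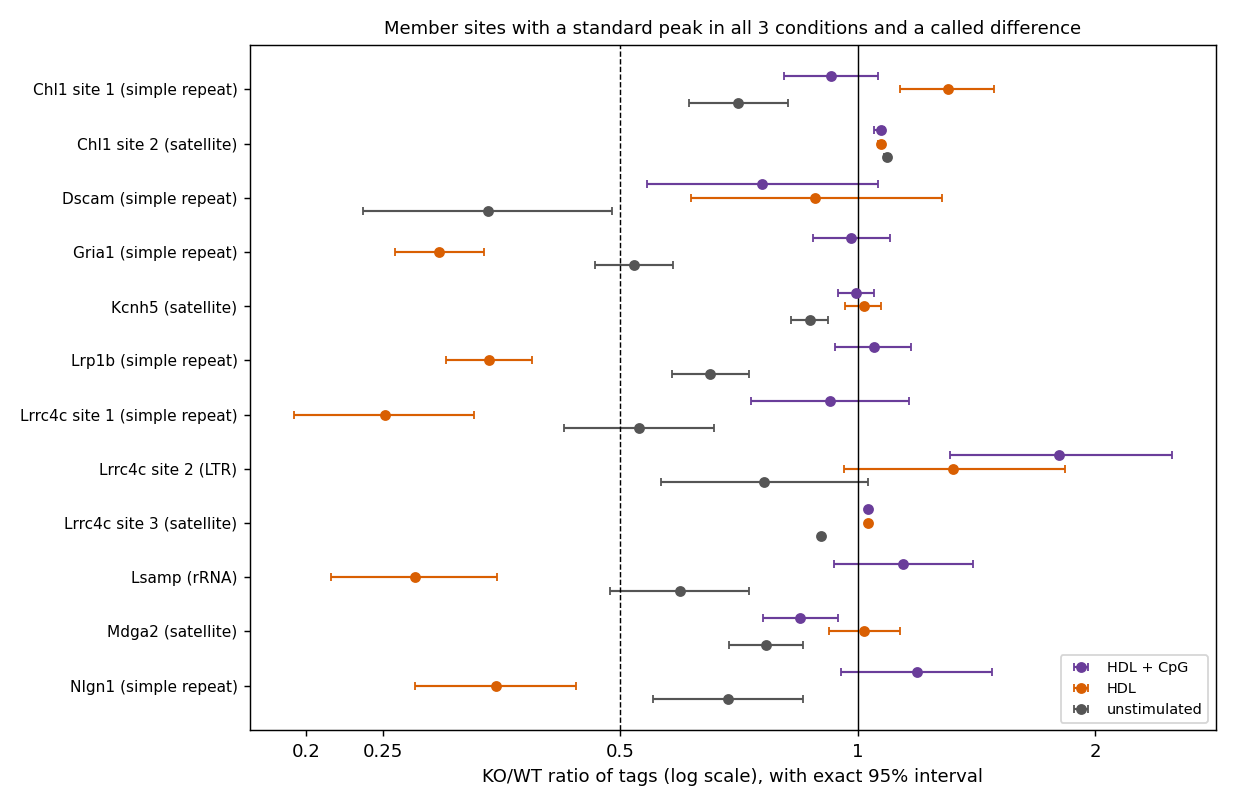
KO/WT (log axis) with exact 95% intervals at the 12 member sites that had a peak in all 3 conditions and a called difference between conditions. At Lsamp, Lrrc4c, Nlgn1, Gria1 and Lrp1b the HDL point lies lowest and the HDL + CpG point near 1, at Dscam intron 3 the unstimulated point lies lowest at 0.340, and satellite sites lie between 0.765 and 1.09.

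Among the 67 sites, 22 had a standard peak in all 3 conditions, 9 in 2 and 36 in only 1. Of these 36, 24 were peaks of HDL cells alone and 17 of these were kept. Most of the 28 kept sites were thus called in HDL alone. HDL also had the longest list over all genes, with 5319 standard peaks of which 2919 were kept. HDL + CpG had 3790 with 1127 kept, and unstimulated cells 2779 with 574 kept. The share of sites called in only 1 condition was not computed over all genes, so these counts are not read as a trait of the members. Whether a site without a listed peak lacked signal in the other conditions cannot be read from peak lists.

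The kind of sequence under the peaks was compared next. By the deposited annotation, none of the 123 standard member peaks lay in a promoter, exon or UTR. Promoters were rare among all standard peaks too, with 4.49% in HDL + CpG, 5.02% in HDL and 3.09% in unstimulated cells. In HDL + CpG 25 of 38 member peaks were intergenic and 13 intronic (all peaks 59.5% and 33.9%). In HDL these were 34 and 21 of 55 (57.1% and 35.7%), and in unstimulated cells 21 and 9 of 30 (63.4% and 31.8%). The difference from all peaks was not tested. By the annotation of the peak centre, 30 of 38 member peaks of HDL + CpG were on a repeat (78.9%, all peaks 50.1%), 44 of 55 in HDL (80%, all 47.0%) and 26 of 30 in unstimulated cells (86.7%, all 60.6%). TC or GA repeats held 4, 12 and 2 member peaks in HDL + CpG, HDL and unstimulated cells, with 0, 9 and 0 kept. The 9 of 12 kept in HDL (75.0%) stand beside 58.1% of all 609 TC or GA peaks of that condition. In HDL + CpG only 0.836% of all 359 such peaks were kept, and in unstimulated cells 7.2% of all 347. IAPEy and IAPLTR3 retrotransposons held 7, 6 and 7 member peaks and L1Md_F2 elements 3, 6 and 3, with none kept in any condition. Over all genes 1 of 100, 0 of 77 and 0 of 85 IAPEy or IAPLTR3 peaks and 6 of 78, 5 of 75 and 3 of 63 L1Md_F2 peaks were kept. Satellites held 5, 4 and 5 member peaks, all removed, and over all genes 0 of 28, 1 of 24 and 0 of 26 satellite peaks were kept. Off annotated repeats, 1 of 8, 6 of 11 and 0 of 4 member peaks were kept, beside 48.9%, 63.2% and 34.7% of all such peaks. Member peaks in the KOIN list of HDL were more often on TC or GA repeats (34.6%, against 11.8% of all KOIN-corrected peaks) and less often off repeats (23.1%, against 61.4%), given as shares with no test. The authors kept reads that map to several places at 1 best position, and how this acted on tags over repeats was not tested.

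**Figure D4:**
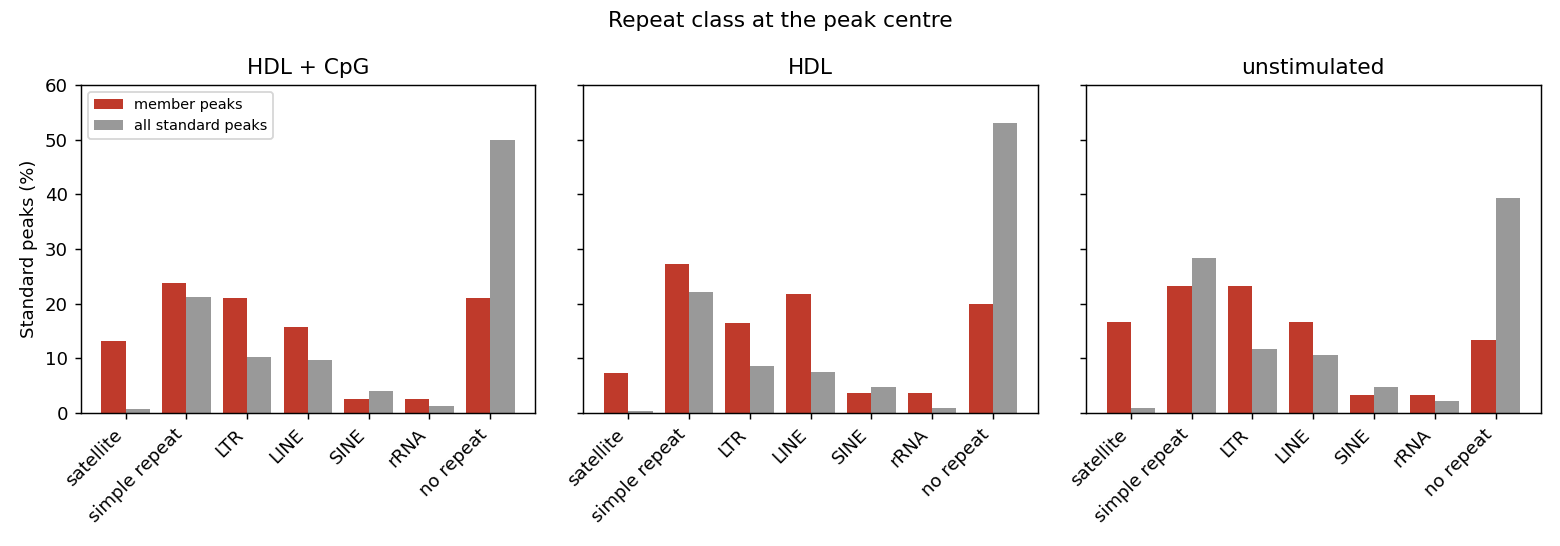
Share of standard peaks (percent, axis from 0) by repeat class of the peak centre for members and for all peaks, in each condition. Member peaks were on a repeat in 78.9%, 80% and 86.7% of cases in HDL + CpG, HDL and unstimulated cells, all peaks in 50.1%, 47.0% and 60.6%.

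Annotation of the centre can miss a repeat elsewhere in the peak, so GA runs (GA or TC, at least 10 units or 20 bp) were searched over whole peaks on both strands. This measure was chosen after the data had been seen. A run was found in 8 of 38 member peaks of HDL + CpG (21.1%, all 17.1%), 17 of 55 of HDL (30.9%, all 21.1%) and 5 of 30 of unstimulated cells (16.7%, all 22.5%). Of the member peaks with a run, 0 of 8, 12 of 17 and 0 of 5 were kept, beside 5.24%, 57.3% and 10.1% of all peaks with a run. In HDL, 12 of 25 kept member peaks (48.0%) held a run, against 22.0% of all kept peaks, and 5 of 30 removed ones (16.7%), against 20% of all removed. Of the 6 kept HDL member peaks off annotated repeats, 3 held a run, of 24 bp in Chl1, 56 bp in Negr1 and 60 bp in Dcc. No member peak with a GA run was kept in HDL + CpG or in unstimulated cells.

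ATF3-type elements were then searched within 100 bp of the peak centre on both strands, as TGAGTCA or TGACTCA (AP-1), TGACGTCA (CRE) and TGATGCAA or TTGCATCA (CHOP). A match was found in 2 of 38 member peaks of HDL + CpG (5.26%, all 18.5%), 3 of 55 of HDL (5.45%, all 19.7%) and 2 of 30 of unstimulated cells (6.67%, all 11.4%). Windows of the same length shifted by 1000 bp held a match at 3.80%, 3.85% and 3.89% of all peaks. Of the kept HDL member peaks 3 of 25 had one (12%), against 25.5% of all kept HDL peaks. They were Dscam intron 1 and Lsamp, the sequences shown above, and the Lrp1b intron site, with TGACTCA. The matches in HDL + CpG and in unstimulated cells were the same Lsamp and Lrp1b elements, so the shares of the 3 conditions are not separate observations. Both of these sites were removed in HDL + CpG and in unstimulated cells. Over whole peaks, a measure added after seeing the data, the shares were 15.8%, 14.5% and 13.3% for members and 31.5%, 33.0% and 24.5% for all. Matches away from the centre were found, among others, in the kept Kcnh5 peak, in 2 kept Dcc peaks and at Grm5, and Opcml had the only member CRE. A match describes the letters and does not show that a factor was bound to them.

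Member peaks were far from the genes they were named for. Median distance to the start site was 388 kb in HDL + CpG, 392 kb in HDL and 383 kb in unstimulated cells, against 36.2, 33.0 and 45.9 kb for all peaks. Within 100 kb lay 4, 8 and 3 member peaks (10.5%, 14.5% and 10.0%, against 70.5%, 73.2% and 65.2% of all), and 44.7%, 41.8% and 40.0% were beyond 500 kb (all 6.39%, 5.49% and 7.66%). Among the few within 100 kb were the Ncam1 and Grm5 peaks and the kept peaks of Dscam, Chl1, Negr1 and Gabra2.

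**Figure D5:**
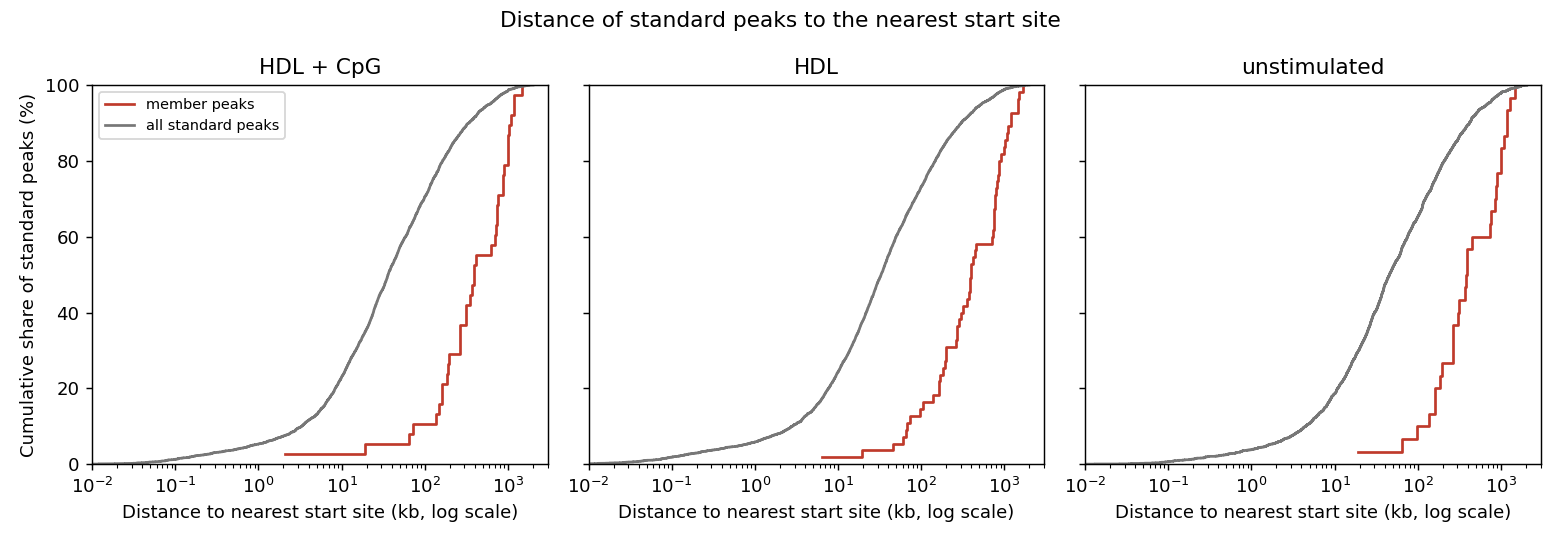
Cumulative share of standard peaks by distance to the annotated start site (kb, log axis) for members and for all peaks in each condition. The member curves are shifted to the right, with medians of 388, 392 and 383 kb, against 36.2, 33.0 and 45.9 kb for all peaks.

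The members are long genes with wide neighbourhoods, which the assignment by nearest start favours. Their median length was 614 kb (91.6 to 2240 kb), against 15.5 kb for 22238 protein-coding genes, and 45 of 46 exceeded 100 kb (10.8% of protein-coding genes). The DNA nearest to a member start amounted to 62.2 Mb or 2.34% of the chromosomes, and member peaks made up 1.00%, 1.03% and 1.08% of standard peaks and 0.162%, 0.854% and 0.168% of KOIN-corrected peaks in HDL + CpG, HDL and unstimulated cells. Member peaks were thus fewer per base than peaks over the genome, and the KOIN-corrected ones least of all in HDL + CpG and unstimulated cells. The territory was taken from protein-coding starts of the GENCODE annotation, whereas the authors named peaks by RefSeq starts. By those GENCODE starts 130 of 11888 standard peaks were nearest to a member, beside the 123 named for one. Over the 46 members the number of standard peaks followed territory with a Spearman rho of 0.393 and gene length with 0.148, as a description, since neighbouring territories share chromosomes and repeats. Of 68 standard peak centres inside a member's own body, 20 were named for another gene with a nearer start, among them 6 of 8 in Negr1 and 4 of 10 in Dcc. The rule therefore misses some peaks inside members and includes many outside them.

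Related genes, ligands and partners of the members, together called relatives here, were counted in the same way. The list held 78 genes that were not members, of which 26 had a standard peak. Kept peaks were 2 of 38 for members and 5 of 22 for relatives in HDL + CpG (5.26% and 22.7%), 25 of 55 and 11 of 24 in HDL (45.5% and 45.8%), and 1 of 30 and 2 of 10 in unstimulated cells (3.33% and 20%). Median KO/WT was 0.987 for members and 0.815 for relatives in HDL + CpG, 0.535 and 0.468 in HDL, and 0.763 and 0.646 in unstimulated cells. More WT reads were called at 7, 17 and 5 of the relatives' peaks and more KO reads at 0 in each condition. No test of the difference between members and these relatives was made.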

How the data were processed

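ATF3 ChIP-seq peak lists of 3 conditions were analysed, with 1 KO and 1 WT library each (2.5 µg antibody, fragments of 150 to 250 bp). Per the submitters' processing notes, the authors used CASAVA 1.8, Bowtie 0.12.8 (to mm9), MACS 1.4.2 and HOMER 4.3, while the study's methods name other MACS releases. Per those methods, replicates were concatenated and multi-mapping reads kept at 1 best position. The deposited MACS score of each peak was used as a threshold and to rank peaks when choosing some of those named and most sequences shown. Tags are a deposited signal, reads per peak that the authors scaled to 10000000 per library. Multiplying by the library totals in the file headers gave whole reads within 0.005 tags. A further deposited column holds the authors' own WT/KO fold change and was not used.

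KO/WT is KO tags over WT tags with no pseudocount. Reads were tested with two-sided exact binomial tests per standard peak, and with exact conditional tests between conditions at peaks overlapping by at least 1 bp, both with Benjamini-Hochberg adjustment (threshold 0.05). Intervals of KO/WT at a peak cover counting error only, and Wilson intervals of shares treat peaks as independent. Member peaks that overlapped across conditions were counted as 1 site. Python 3.11.15, NumPy 2.4.6, SciPy 1.17.1, pandas 2.3.3 and Matplotlib 3.10.9 were used, and the tests were tried on simulated data. Peaks named individually are the highest-scoring kept and removed peaks of each condition, peaks next to the 2-fold limit, genes with most peaks and sites with a called difference between conditions, and other members are given so that each gene is accounted for. Members and lists were chosen with earlier results of these data known. Alternatives covered score minima, merging of peaks within 1000 bp, repeats, distance, transcripts, scaling, pseudocount, overlap and motif window. Some sequences under member peaks are not reported here.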

Additional observations from a re-analysis of the deposited data

Results flagged for a closer look

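KO/WT differed between conditions at 34 of 79 overlapping member peak pairs, in 10 genes, by the exact conditional test adjusted over all 6154 pairs. Such calls were common over all genes too. Among all pairs, KO/WT of HDL + CpG against HDL was called higher at 32.1% and lower at 2.59%. Against unstimulated cells these shares were 25.3% and 2.52% for HDL + CpG, and 2.88% and 20.2% for HDL. Values below are the ratio of KO/WT in the first condition to that in the second, each from 1 library per genotype and condition, and for the genes named with more than 1 value they belong to separate peak pairs. The role of depth, which was 0.96, 1.74 and 2.03 times as high in KO as in WT for HDL + CpG, HDL and unstimulated cells, was not tested.

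For HDL + CpG against HDL, KO/WT was higher at Lsamp (4.14), at a pair of Dcc sites (3.82 and 2.47), at Lrrc4c (3.66 at the CAGA run and 1.01 at adjacent satellite peaks), at Nlgn1 (3.41), at Gria1 (3.32) and at Lrp1b (3.07). It was lower at the TCTG repeat near Chl1 (0.713) and at the Mdga2 satellite (0.83).

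For HDL + CpG against unstimulated cells, KO/WT was higher at Lrrc4c (2.37 at an IAPLTR3 element, 1.75 at the CAGA run, and 1.15 and 1.12 at satellites), Dscam intron 3 (2.22), Lsamp (1.92), Gria1 (1.88), Nlgn1 (1.73), Lrp1b (1.61), the TCTG repeat near Chl1 (1.31) and the Kcnh5 satellite (1.14). It was lower, by little, at the Chl1 satellite (0.979).

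For HDL against unstimulated cells, KO/WT was higher at Dscam intron 3 (2.59), the TCTG repeat near Chl1 (1.84), Lrrc4c (1.74 at the IAPLTR3 element, and 1.14 and 1.12 at satellites), the Mdga2 satellite (1.33) and the Kcnh5 satellite (1.17). It was lower at Lsamp (0.462), the Lrrc4c CAGA run (0.477), Nlgn1 (0.509), Lrp1b (0.524) and Gria1 (0.568).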

How the results depend on the processing

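No paired analysis was possible because each genotype and condition had 1 pooled library, and for the same reason no replicate could be left out. The share of member peaks kept in HDL + CpG became 0% at a score of at least 60 (all peaks 23.8%) or 100 (8.8%), within 100 kb of the start (36.4%) and inside transcripts (39.1%). In HDL it became 20% at a score of at least 100 (all peaks 63.3%) and 62.5% within 100 kb (58.1%), and in unstimulated cells 0% without satellites, simple and low-complexity repeats (all peaks 24.1%) and within 100 kb (24.9%). Median KO/WT with scaling to the median of all peaks was 1.4 in HDL + CpG, 1.29 in HDL and 1.27 in unstimulated cells. It was 0.953 in HDL at a score of at least 100 and 0.65 in unstimulated cells inside transcripts. In HDL + CpG, more WT reads were called at 1 member peak at a score of at least 60, 1 at 100, 3 without those repeats, 1 within 100 kb, 2 inside transcripts and 0 after median scaling, and more KO reads at 1 without those repeats, 0 within 100 kb, 1 inside transcripts, 1 without Lrrc4c, the gene with most peaks, and 17 after median scaling. In HDL, more WT reads were called at 15 (score 60), 5 (score 100), 16 (without those repeats), 5 (within 100 kb), 14 (inside transcripts) and 5 (median scaling), and more KO reads at 2 (without those repeats), 0 (within 100 kb), 1 (inside transcripts), 2 (without Lrrc4c) and 19 (median scaling). In unstimulated cells, more WT reads were called at 6 (without those repeats), 0 (within 100 kb), 5 (inside transcripts) and 2 (median scaling), and more KO reads at 0 (without those repeats), 0 (within 100 kb) and 10 (median scaling). Restrictions to fewer peaks lower these counts by construction. The share of all peaks called was not computed under these alternatives, so the counts are not read as a trait of the members. A motif within 50 bp instead of 100 bp was found in 1.82% of HDL member peaks, against 11.2% of all standard HDL peaks. After median scaling, KO/WT of HDL + CpG was lower than that of HDL at 11 pairs, higher than that of unstimulated cells at 7 and lower at 3, and KO/WT of HDL was higher than that of unstimulated cells at 11 and lower at 2. It reversed 4 called differences at satellites of HDL + CpG, to 0.599 at Lrrc4c against HDL, and to 0.977 at Kcnh5 and 0.96 and 0.98 at Lrrc4c against unstimulated cells, and 5 others no longer passed. Of the other values, 60 counts, shares and medians stayed within 1.5 times or within their counting interval. A pseudocount of 1 tag on both KO and WT cannot turn the direction of KO/WT. It is therefore no test of direction at the 123 member peaks. With it, median KO/WT of the member peaks was 0.987 in HDL + CpG and 0.587 in HDL, against 0.987 and 0.535 without it. An overlap of at least 50% of both peaks, where 31 called differences could be recomputed, changed no call.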
